A study of Bos indicus x Bos taurus with 11 samples.

Results

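The genes of Wnt signalling at the cell surface and in the nucleus were examined in cultured skin fibroblasts of bovine fetuses with large offspring syndrome (LOS) and of control fetuses. They were taken by gene name from the table of read counts: the WNT ligands, the frizzled receptors, the co-receptors LRP5 and LRP6, the secreted inhibitors of the SFRP and Dickkopf families with FRZB and WIF1, the LEF/TCF factors, the AXIN genes and the beta-catenin gene CTNNB1. The names matched 40 of the 27398 rows, and 29 of the 40 passed the filter on low counts and were tested. The study set LOS, which its title places beside the human Beckwith-Wiedemann syndrome, against controls. LOS is an overgrowth condition seen in calves after in vitro methods of conception. LOS fetuses (LOS, 6 animals, 3 females and 3 males) came from assisted reproduction and were those whose body weight passed the 97th centile of controls. Control fetuses (CON_B, 5 animals, 2 females and 3 males) came from artificial insemination. All 11 were first-generation Brahman x Angus crosses (an indicine by a taurine breed) collected at day 105 of gestation, and each gave 1 primary cell line and 1 library of total RNA depleted of ribosomal RNA. Conception method and syndrome go together in these groups and cannot be told apart, since every LOS fetus was conceived by assisted reproduction and every control by insemination.

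Wnt ligands are secreted lipid-modified proteins. They bind frizzled receptors, and in the canonical branch they join a frizzled receptor to LRP5 or LRP6, which stops the AXIN complex from marking beta-catenin for degradation, so that beta-catenin accumulates and activates genes together with LEF1, TCF7, TCF7L1 or TCF7L2. SFRP proteins and WIF1 bind the ligands, whereas DKK1 and DKK2 act at the co-receptors. AXIN2 and LEF1 are themselves common targets of the pathway, and in fetal skin Wnt signalling takes part in the specification of the dermis and in the formation of hair follicles. WNT5A and its relatives act largely through branches that do not need beta-catenin.

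Total counts per library ran from 12084822 to 19297167. Within a group the libraries differed by more than counting error, with a chi-square per degree of freedom of 21.2 to 98.2 between pairs, so none was a repeat of another. All 16 fibroblast markers were measured, and their summed level was 57282 to 71562 CPM (counts scaled to library size after adjustment by the trimmed mean of M values) in LOS and 59595 to 69697 CPM in controls. The summed levels of other cell types were low: endothelial markers (6 of 8 in the table) reached 5.02 CPM in LOS and 5.26 CPM in controls, leukocyte markers (7 of 8) 1.31 and 1.82 CPM, and muscle markers (4 of 9) 0.45 and 0.85 CPM. Keratinocyte markers (10 of 12) summed to 5.13 to 95.9 CPM in LOS and 10.9 to 79.9 CPM in controls, melanocyte and Schwann cell markers (5 of 10) to 17.6 to 54.3 CPM and 8.54 to 188 CPM, adipocyte markers (7 of 7) to 13.5 to 24.3 CPM and 9.88 to 39.2 CPM, and hair follicle markers (4 of 7) to 0.63 to 2.42 CPM and 0.56 to 6.29 CPM. Single genes carried the highest of these sums: DSC3 gave 92.2 CPM of the keratinocyte sum in LOS 4 and 72.3 CPM in control 5, and PMEL 166 CPM of the melanocyte and Schwann cell sum in control 2. LPL gave 19.7 CPM of the adipocyte sum in LOS 3 and 33.9 CPM in control 3, and 4 of the 7 adipocyte markers stayed under 1 CPM in all libraries. The keratin genes KRT5 and KRT14 were at 0 in 5 of 6 LOS libraries and 3 of 5 controls. Other keratinocyte markers had reads in all 11 libraries: KRT10 (1.63 to 3.24 CPM), CDH1 (0.05 to 21.2 CPM), PERP (0.66 to 10.3 CPM) and DSC3. No marker in the table was at 0 in all libraries. These are bulk cultures, in which fewer cells of a type and less RNA per cell cannot be told apart.

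Of the WNT ligands the fibroblasts expressed a handful, led in counts by WNT5A (chromosome 22, 45540765 to 45561515 of build ARS-UCD1.2, plus strand). It ran from 49.6 CPM (LOS 5) through a median of 54.5 to 75.7 CPM (LOS 1) in LOS, against 62.6, 54.7, 71.9, 60.7 and 67.1 CPM in controls 1 to 5. The groups overlapped over most of their range, and the means were 58.7 ± 10.5 CPM in LOS (SD, n = 6) and 63.4 ± 6.52 CPM in controls (SD, n = 5). WNT5B, the close relative of WNT5A, was far more uneven and was singled out after its values were seen. It lay at 6.16 to 59.3 CPM in LOS with a median of 14.2, and at 7.08 to 36.5 CPM in controls with a median of 10.7. LOS 6, LOS 4 and control 3 held the high values, so the spread ran through both groups. WNT2, a canonical ligand, ran from 1.8 CPM (LOS 6) through a median of 3.01 to 10.0 CPM (LOS 1) in LOS, against 7.77, 3.95, 3.46, 6.79 and 13.2 CPM in controls. Its log2 fold change of LOS minus control was -0.73 ± 0.53 (SE), with -1.11 without control 2 and -0.32 without control 5. WNT9A ran from 3.32 through 4.26 to 5.18 CPM in LOS, against 4.26, 1.14, 5.43, 3.39 and 3.11 CPM in controls (0.37 ± 0.32), with overlap. The log2 fold change of WNT9A was 0.11 without control 2 and 0.65 without control 1. WNT11 stayed at 0.11 to 1.15 CPM in LOS and 0.42 to 0.84 CPM in controls. The other 8 ligands with a row (WNT10A, WNT10B, WNT16, WNT2B, WNT3, WNT4, WNT6 and WNT7B) had 3 to 36 counts in total over the 11 libraries and were not tested. WNT2B, the ligand most like WNT2, had counts in 4 libraries, with 13 in LOS 1 as its highest.

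**Figure D1:**
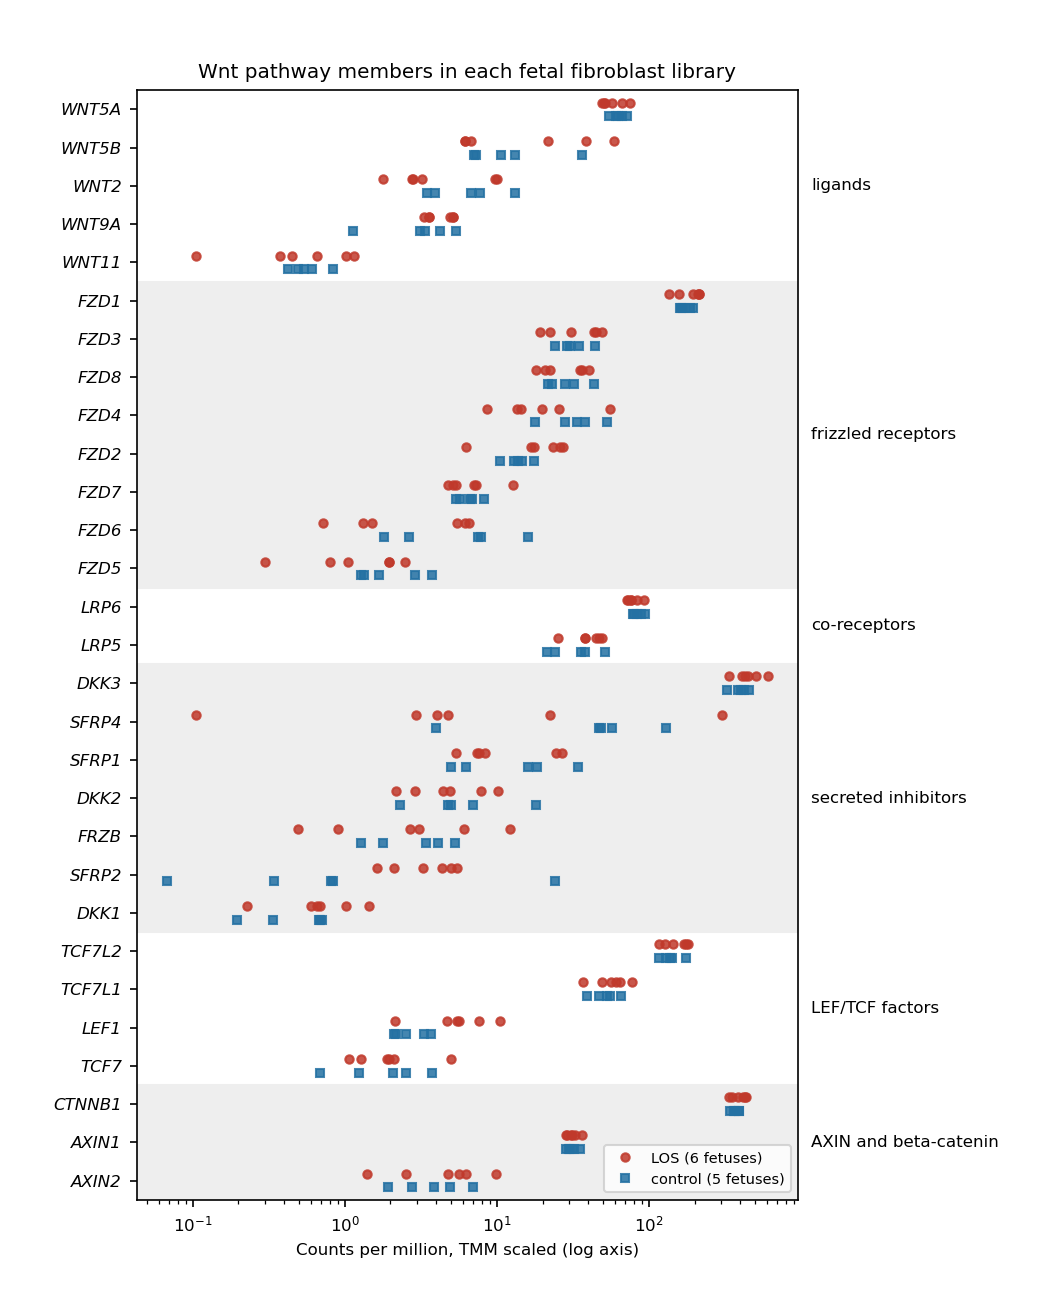
Level of the 29 tested members in each library, in CPM on a log axis, with LOS fetuses (6, red circles) above control fetuses (5, blue squares) and the members grouped by role. The 2 groups overlap in all 29, and SFRP4 spreads from 0.11 to 302 CPM within LOS.

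Frizzled receptors were expressed widely, and FZD1 took the most counts of the family. FZD1 ran from 135 CPM (LOS 3) through a median of 203 to 214 CPM (LOS 4) in LOS, against 187, 168, 194, 159 and 163 CPM in controls (log2 fold change 0.11 ± 0.13). FZD2 (chromosome 19, 44328501 to 44331580, plus strand) ran from 6.32 CPM (LOS 1) through 20.5 to 27.1 CPM (LOS 4) in LOS, against 10.5, 13.9, 12.9, 14.6 and 17.6 CPM in controls. LOS 1 lay below every control, whereas the LOS males all lay above every control (0.49 ± 0.24, unadjusted p = 0.0672). FZD4, also the receptor for the non-Wnt ligand norrin, ran from 8.59 CPM (LOS 4) through 17.1 to 55.3 CPM (LOS 1) in LOS, against 33.9, 18, 28.1, 53.1 and 38.3 CPM in controls. Of the LOS libraries 5 were below the control median and LOS 1 was above every control (-0.67 ± 0.46). FZD6, which acts in planar polarity and in hair orientation in mice, was below the control median in all 6 LOS libraries. It ran from 0.73 through 3.51 to 6.57 CPM in LOS, against 7.90, 1.83, 16.0, 2.66 and 7.48 CPM in controls (-0.89 ± 0.64). The log2 fold change of FZD6 was -1.37 without LOS 1 and -0.49 without control 3. FZD5 had few counts, from 0.30 through 1.51 to 2.50 CPM in LOS, against 1.69, 1.33, 2.92, 1.28 and 3.74 CPM in controls (-0.54 ± 0.43). FZD3 ran from 19.4 through 37.1 to 49.5 CPM in LOS, against 30.2, 24.2, 28.9, 44.3 and 34.9 CPM in controls (0.11 ± 0.27). FZD7 and FZD8 overlapped, at 4.81 to 12.7 and 18.2 to 40.6 CPM in LOS and 5.37 to 8.2 and 21.7 to 43.8 CPM in controls. FZD9 and FZD10 had 60 and 12 counts in total and were not tested.

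LRP6 was among the steadiest members and LRP5 varied more, by the SD of log2 CPM within groups (0.13 and 0.43). LRP6 ran from 72.4 through 76 to 93 CPM in LOS, against 78.2, 83.2, 88.3, 94.6 and 79.9 CPM in controls, with a log2 fold change of -0.09 ± 0.09. LRP5 ran from 25.3 CPM (LOS 1) through 41.5 to 49.4 CPM in LOS, against 35.9, 51.2, 24.1, 38.2 and 21.5 CPM in controls (0.24 ± 0.22), and its log2 fold change was 0.41 without control 2 and 0.13 without control 5. Of the LOS libraries 5 lay above the control median of LRP5 and 4 below that of LRP6.

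Secreted inhibitors were the most uneven class. DKK3, the divergent member of the Dickkopf family, was the exception, with an SD of log2 CPM within groups of 0.25. It ran from 337 CPM (LOS 1) through 438 to 607 CPM (LOS 4) in LOS, against 386, 327, 456, 402 and 421 CPM in controls (0.22 ± 0.11, unadjusted p = 0.0757), and 5 LOS libraries lay above the control median. DKK1 had only 3 to 20 counts per library, or 0.23 through 0.67 to 1.45 CPM in LOS, against 0.34, 0.20, 0.68, 0.69 and 0.71 CPM in controls (0.65 ± 0.49). DKK2 lay at 2.17 to 10.3 CPM in LOS and 2.32 to 18.1 CPM in controls (-0.37 ± 0.55), and its log2 fold change was 0.18 without control 5.

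SFRP4 (chromosome 4, 49731830 to 49742113, minus strand), SFRP2, SFRP1 and FRZB were singled out after their values were seen. SFRP4 ran from 0.11 CPM (LOS 6, 2 counts) through a median of 4.41 to 302 CPM (LOS 1) in LOS, against 47.2, 4.00, 130, 57.6 and 48.8 CPM in controls. Of the LOS libraries 5 lay below the control median, and LOS 1 held the highest value of all. The means were nearly equal, at 56.0 ± 121 CPM in LOS (SD, n = 6) and 57.6 ± 45.7 CPM in controls (SD, n = 5), and the fitted log2 fold change was -1.23 ± 1.94. It was -3.01 without LOS 1, -0.25 without LOS 6 and -0.046 with no sex term. SFRP2 was above the control median in all 6 LOS libraries (1.64 through 3.83 to 5.5 CPM), yet control 5 stood highest, with 0.07, 0.84, 0.82, 0.34 and 24.1 CPM in controls (0.24 ± 1.2). Without control 5 its log2 fold change was 2.78. SFRP1 lay at 5.43 to 26.7 CPM in LOS and 5.04 to 34.3 CPM in controls. FRZB, a ligand trap first known from cartilage, lay at 0.49 to 12.2 CPM in LOS and 1.28 to 5.30 CPM in controls (0.51 ± 0.76), and its log2 fold change was -0.21 without LOS 3. WIF1 had 3 counts in all and was not tested.

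LEF1 had the smallest p of all members. The gene lies on chromosome 6, 17083384 to 17200677, plus strand, and encodes the factor through which beta-catenin activates genes in the early dermis and hair placodes. It ran from 2.13 CPM (LOS 1) through a median of 5.55 to 10.6 CPM (LOS 6) in LOS, against 3.31, 3.70, 2.51, 2.11 and 2.19 CPM in controls. LOS 2 to LOS 6 all lay above the highest control, and LOS 1 lay within the control range, so the groups overlapped through that library. The means were 6.02 ± 2.85 CPM in LOS (SD, n = 6) and 2.77 ± 0.71 CPM in controls (SD, n = 5). The log2 fold change was 1.10 ± 0.35 with an unadjusted p of 0.00915, and it did not pass over all genes tested (edgeR adjusted p = 0.932). The other factors of the family differed less. TCF7L2 ran from 116 through 157 to 182 CPM in LOS, against 129, 141, 116, 138 and 177 CPM in controls (0.12 ± 0.15). TCF7L1 lay at 36.7 to 77.4 CPM in LOS and 39.1 to 65.2 CPM in controls, and TCF7 at 1.07 to 5.02 CPM and 0.69 to 3.74 CPM. All 4 had log2 fold changes above 0, but those of TCF7L1 (0.14 ± 0.18), TCF7 (0.15 ± 0.43) and TCF7L2 were smaller than their SE.

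Beta-catenin and AXIN1 varied as little as LRP6, with an SD of log2 CPM within groups of 0.13 and 0.12. CTNNB1 ran from 335 CPM (LOS 1) through 403 to 437 CPM (LOS 5) in LOS, against 390, 366, 394, 341 and 365 CPM in controls (0.08 ± 0.09). AXIN1, the scaffold of the degradation complex, lay at 28.4 to 36.5 CPM in LOS and 28.7 to 35.5 CPM in controls. AXIN2, its inducible relative and the usual readout of canonical signalling, was singled out after its values were seen. It ran from 1.40 CPM (LOS 1) through 5.22 to 9.83 CPM (LOS 4) in LOS, against 4.93, 6.96, 2.79, 1.92 and 3.88 CPM in controls. The log2 fold change was 0.33 ± 0.47. It was 0.0036 without LOS 4 and 0.60 without control 2, the ends of its range with 1 library left out. In males it was 1.12 ± 0.56 and in females -0.59 ± 0.61, with overlap of the groups in each sex. LOS 6, which had the most LEF1 and TCF7, stood at 2.54 CPM of AXIN2, and LOS 4, highest in AXIN2, at 4.70 CPM of LEF1. LOS 5 had 7.63 CPM of LEF1 and 6.27 CPM of AXIN2, and LOS 1 had the least of both in LOS. Whether LEF1 and AXIN2 vary together was not tested.

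Across the 29 tested members, 17 were higher and 12 lower in LOS by the sign of the log2 fold change, with a median of 0.11 beside a median of -0.0007 over all 16946 genes tested, of which 49.8% were higher. No member was called (0 of 29), and no gene of the table was either (0% of genes at an adjusted p under 0.05, Benjamini-Hochberg adjustment of the quasi-likelihood p of edgeR). At an unadjusted p under 0.05 there was 1 member, LEF1, beside 4.44% of all genes, or 752, with 2.48% of genes on the side higher in LOS. DESeq2 called 5 genes and limma voom 0, with 0 members in either. The libraries of the groups overlapped in all 29 members, beside 0.23% of genes whose groups did not overlap. By class, log2 fold changes were above 0 in 3 of 5 ligands, 3 of 8 frizzled receptors, 1 of 2 co-receptors, 4 of 7 secreted inhibitors, 4 of 4 LEF/TCF factors and 2 of 3 of the last class. LEF1 had the highest value.

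**Figure D2:**
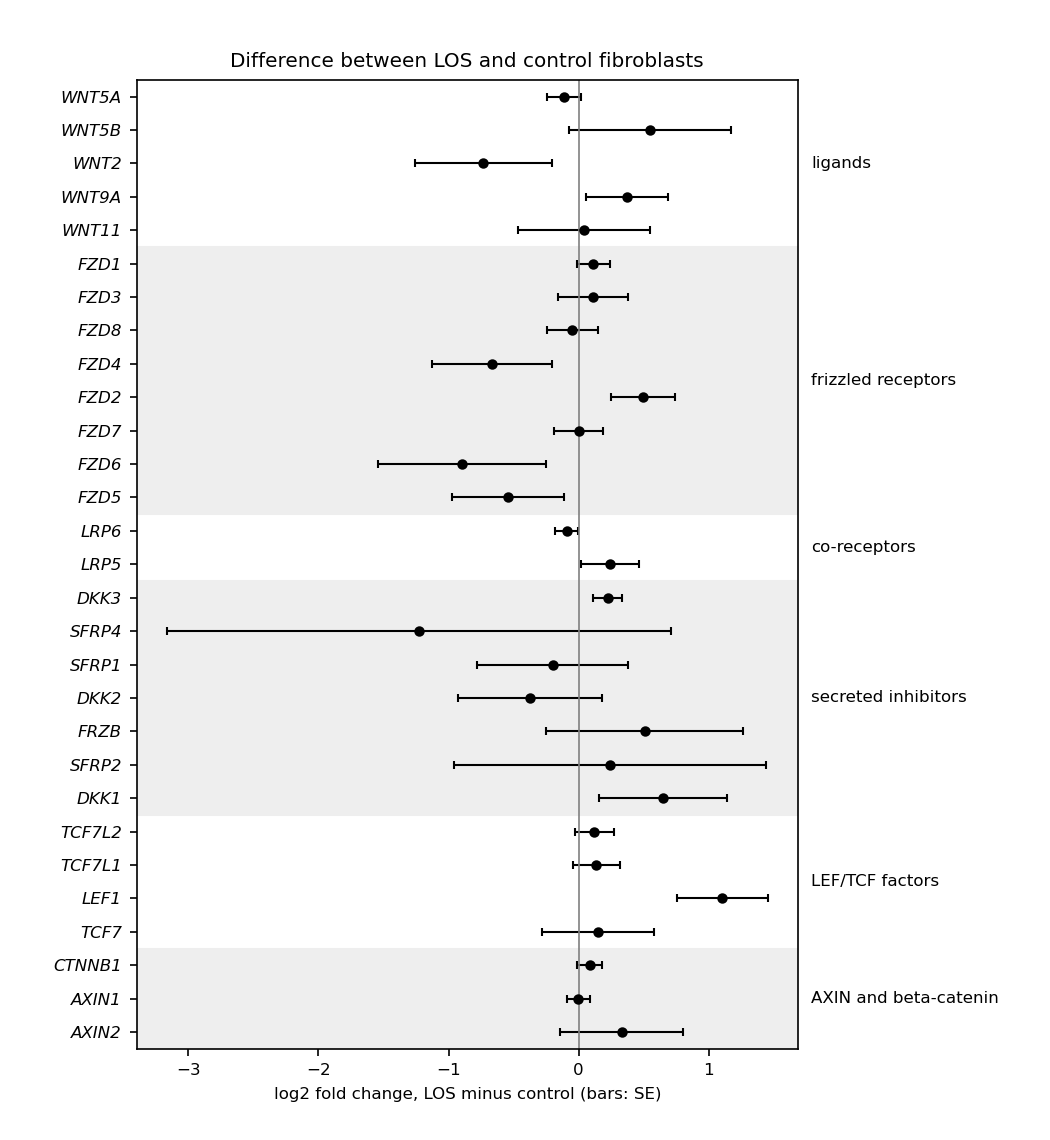
Log2 fold change of LOS minus control for the 29 tested members, grouped by role, with bars of 1 standard error from edgeR's quasi-likelihood fit with sex as a term. LEF1, at 1.10 ± 0.35, lies farthest above 0, and SFRP4, at -1.23 ± 1.94, has the widest bar.

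The members differed more between libraries of a group than most genes did. The pooled SD within groups of log2 CPM had a median of 0.61 over the tested members and of 0.31 over all genes tested, and 17 of 29 members lay above the upper quartile of all genes, beside 25% of genes by definition. Low counts add to this spread, and the members were not matched to other genes by level. By class, 6 of 7 secreted inhibitors, 4 of 5 ligands and 4 of 8 frizzled receptors lay above the upper quartile, beside 0 of 2 co-receptors. The 40 tested genes of the intracellular beta-catenin machinery (DVL, GSK3, APC, CSNK1, TLE and others) had a median SD of 0.16, with 2 above the upper quartile.

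LOS 1 was the highest library in 5 members and the lowest in 7, or at an end in 41.4% of the 29, beside 24.6% of all genes. LOS 6 was highest in 3 and lowest in 5, or at an end in 27.6%, beside 24.3% of all genes. LOS 1, the shallowest library at 12084822 counts, had the highest levels of SFRP4, FZD4, FZD7, WNT5A and WNT11 and the lowest of FZD2, FRZB, WNT5B, TCF7L1, CTNNB1, AXIN1 and AXIN2. LOS 6, the deepest at 19297167 counts, had the highest levels of LEF1, TCF7 and WNT5B and the lowest of SFRP4, WNT2, WNT11, FZD7 and DKK2. The summed level of 21 proliferation markers, such as MKI67 and TOP2A, was 745 CPM in LOS 1 and 255 to 409 CPM in the other LOS libraries, beside 340 to 592 CPM in controls, and of the 21 genes 1 was higher and 20 were lower in LOS by sign. The part of proliferation and of depth in the levels of LEF1 and the other members was not tested. Without LOS 1, 5 of the 28 members then tested had an unadjusted p under 0.05, beside 10.9% of all genes. Their log2 fold changes were 1.31 ± 0.27 for LEF1, 0.66 ± 0.13 for FZD2, 0.27 ± 0.11 for DKK3, -1.04 ± 0.32 for FZD4 and -3.01 ± 0.92 for SFRP4. None passed over all genes (smallest edgeR adjusted p = 0.305). LOS 1 was 1 of 11 libraries left out in turn. Leaving out any other gave 1 to 3 members at that unadjusted p, and 452 to 1126 genes beside 1826 without LOS 1.

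**Figure D3:**
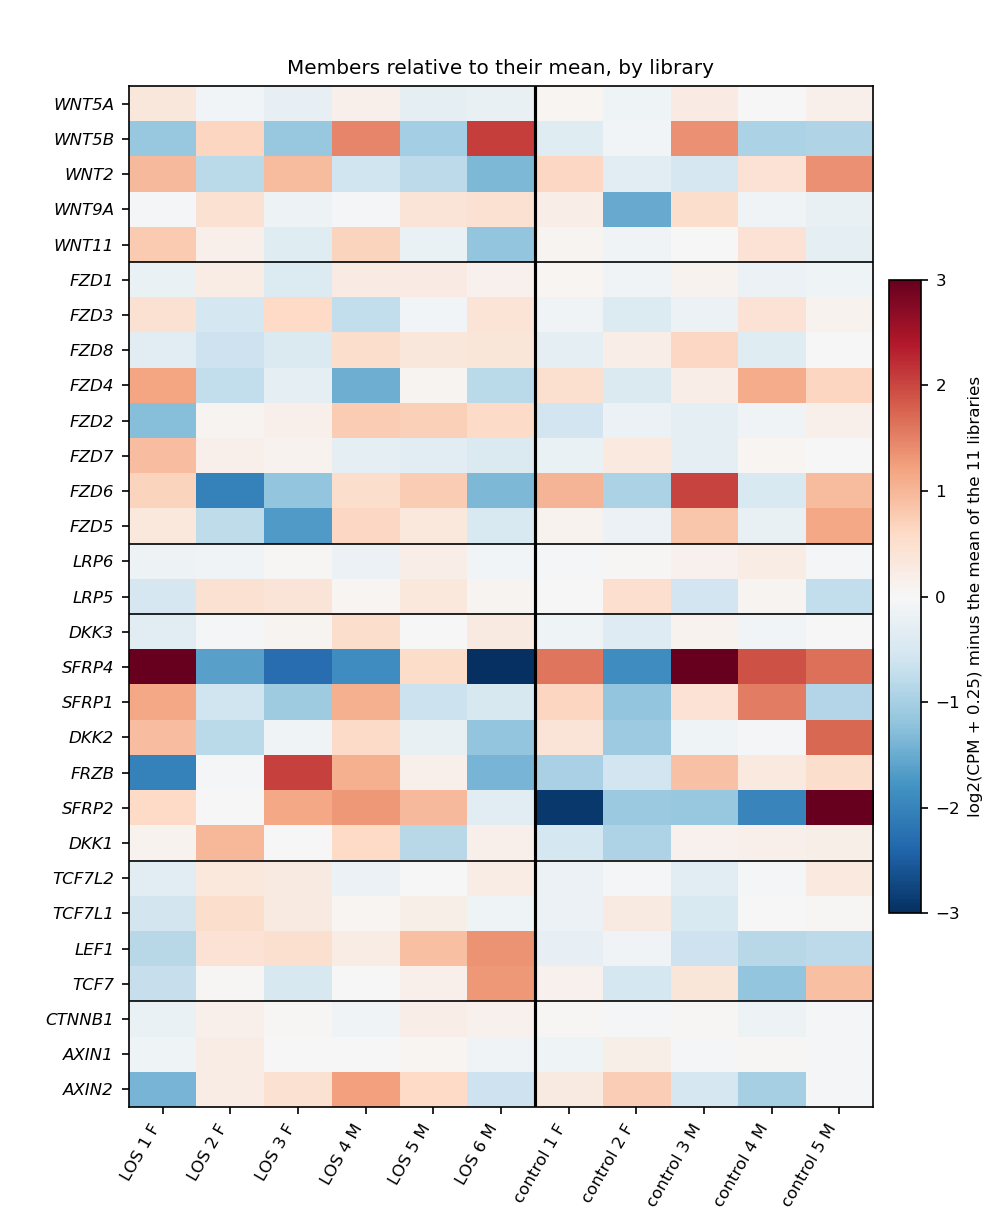
Each tested member in each library as log2(CPM + 0.25) minus its mean over the 11 libraries, LOS libraries left of the black line and controls right of it, F and M giving the sex of the fetus, with colours limited to 3 log2 units either way. SFRP4 and SFRP2 have the strongest colours, and LEF1 is red in LOS 2 to LOS 6 and blue in LOS 1.

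The LOS effect was also read in each sex, with 3 LOS and 3 control males and 3 LOS and 2 control females. Among males LEF1 stood at 4.70, 7.63 and 10.6 CPM in LOS 4 to 6, against 2.51, 2.11 and 2.19 CPM in controls 3 to 5. SFRP4 stood at 4.04, 22.4 and 0.11 CPM in the LOS males, against 130, 57.6 and 48.8 CPM in the control males. Both pairs of male groups were fully apart, LEF1 upward and SFRP4 downward. In females LEF1 stood at 2.13, 5.44 and 5.65 CPM in LOS, against 3.31 and 3.70 CPM in controls, and SFRP4 at 302, 4.79 and 2.94 CPM in LOS, against 47.2 and 4.00 CPM in controls, both with overlap. In 6 of 29 members the male groups did not overlap, beside 13% of all genes. LEF1, FZD1 and FZD2 lay above the controls, as did 6.97% of all genes, and FZD4, WNT2 and SFRP4 lay below, as did 6.01%. In females 3 of 29 did not overlap, beside 17.5% of all genes. DKK1 and SFRP2 lay above, as did 8.64% of all genes, and FZD8 lay below, as did 8.88%.

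The difference between the sexes was then tested as an interaction. The log2 fold change of LEF1 was 1.75 ± 0.39 in males and 0.33 ± 0.43 in females, a difference of 1.42 ± 0.57 (unadjusted p = 0.0311). That of WNT2 was -1.59 ± 0.58 in males and 0.36 ± 0.63 in females, a difference of -1.95 ± 0.86 (unadjusted p = 0.0461). DKK1 had -0.09 ± 0.55 in males and 1.76 ± 0.68 in females, a difference of -1.85 ± 0.87 (unadjusted p = 0.0599). The female value of DKK1 rests on 8, 20 and 8 counts in LOS 1 to 3, against 5 and 4 in controls 1 and 2. With 1 library left out these differences ranged over 1.09 to 1.67 for LEF1, -2.51 to -1.35 for WNT2 and -2.30 to -1.32 for DKK1. No member passed over all genes (smallest edgeR adjusted p = 0.921), and 2 of 29 had an unadjusted p under 0.05, beside 4.95% of all genes, or 870. DESeq2 called 6 genes and limma voom 0 for this interaction, with 0 members in either. Between male and female fetuses themselves 0 of 29 members were called, beside 0.0472% of all genes, and 4 had an unadjusted p under 0.05, beside 3.3% of all genes. These were FZD2 (0.64 ± 0.24, male minus female), FZD8 (0.55 ± 0.20) and DKK3 (0.32 ± 0.11), higher in males by sign, and FZD7 (-0.52 ± 0.21).

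**Figure D4:**
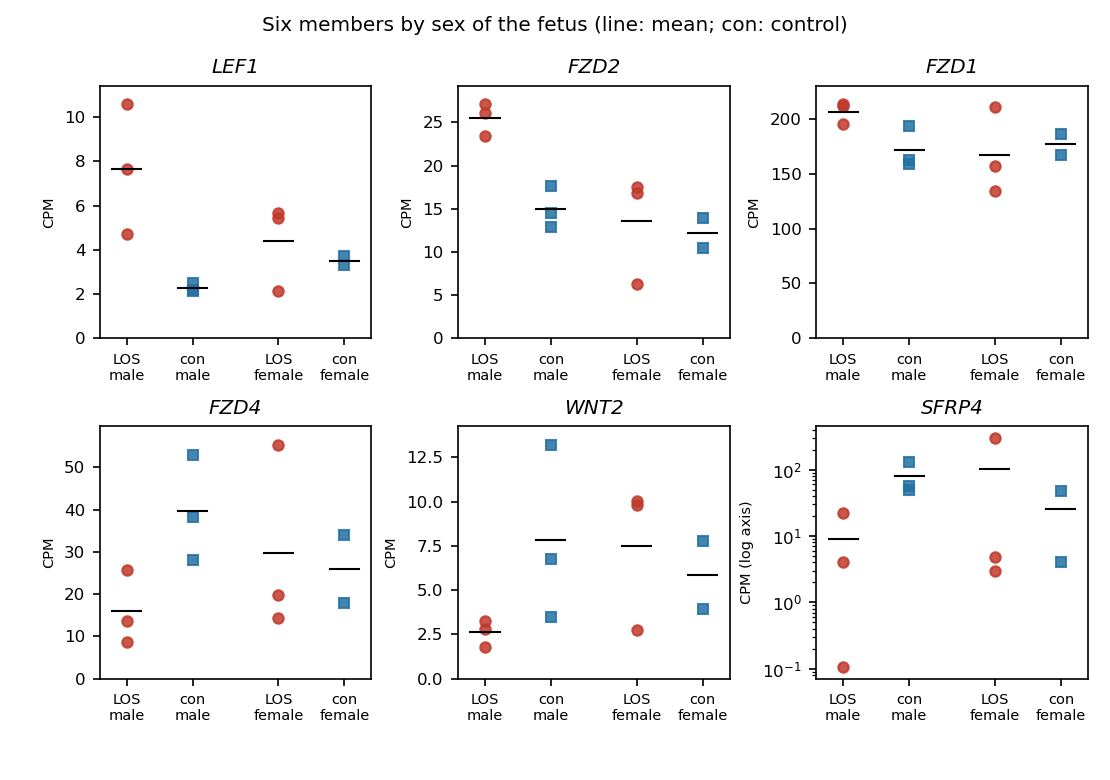
CPM of the 6 members whose male groups did not overlap, with LOS males, control males, LOS females and control females from left to right (3, 3, 3 and 2 fetuses), the black line being the mean and the SFRP4 axis logarithmic. LEF1 is at 4.70 to 10.6 CPM in LOS males and 2.11 to 2.51 CPM in control males.

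Reads over sites where the breeds differ were assigned by the authors to the maternal or the paternal allele. Parent and breed cannot be told apart in these fetuses. The allelic table held 21 members, and 13 had enough reads to test, with 509 (WNT2) to 58370 (TCF7L2) allelic reads each over the 11 libraries. TCF7L2 was read almost evenly, at 50.3% ± 0.94 maternal in LOS (SD, n = 6) and 50.5% ± 0.92 in controls (SD, n = 5). Its allelic reads outnumbered its 24904 expected counts, so allelic reads are not a subset of those counts. The same held for WNT9A (703 allelic reads against 650 expected counts) and for WNT4 (12 against 3), which was not tested. How allelic reads were counted is not given, so the read numbers of each gene may count a read more than once. FZD3 (chromosome 8, 10140657 to 10238558, minus strand) was read more from the maternal allele. Its maternal share was 57.1%, 61.8%, 57.9%, 64.1%, 61.7% and 56.8% in LOS 1 to 6, on 39 to 336 reads, against 46.0%, 57.0%, 56.8%, 61.5% and 50.2% in controls, on 139 to 574 reads. It was above 50% in all 6 LOS libraries and 4 of 5 controls. The log2 ratio of maternal over paternal reads was 0.41 ± 0.09 (edgeR adjusted p = 0.00137). FZD3 was the 1 member of 13 called in this test (7.69%), beside 20.5% of all 5700 genes tested.

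The maternal share of no member differed between LOS and control over all genes (0 of 13 called, beside 0% of 5700 genes, edgeR; limma voom called 0 as well). At an unadjusted p under 0.05 there was 1 member of 13, beside 4.32% of all genes, or 246. It was SFRP1, singled out after its values were seen. Its maternal share was 43.9%, 30.4%, 29.6%, 31.0%, 47.6% and 33.7% in LOS 1 to 6, on 27 to 274 reads, against 76.1%, 50.8%, 40.0%, 46.1% and 54.8% in controls, on 31 to 466 reads. The means were 36.0% ± 7.74 in LOS (SD, n = 6) and 53.6% ± 13.8 in controls (SD, n = 5), and LOS 1 and LOS 5 overlapped the controls. The log2 difference was -0.99 ± 0.32 (edgeR adjusted p = 0.999), and without control 1 it was -0.58.

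**Figure D5:**
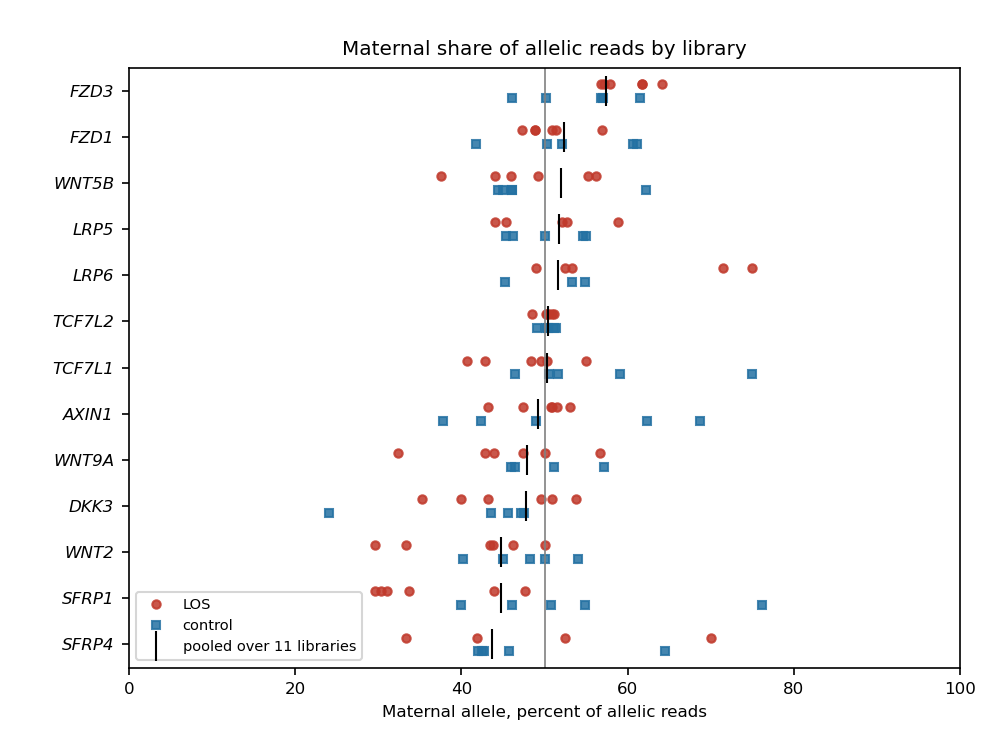
Maternal allele as a percent of allelic reads for the 13 tested members, LOS libraries (red circles) above control libraries (blue squares), with a black tick for the share pooled over the 11 libraries and a grey line at 50%. The pooled share runs from 43.7% (SFRP4) to 57.4% (FZD3), and single points of genes with few reads scatter widely.

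Other genes of the pathway were counted from 4 lists, and 0 genes of any list passed over all genes (smallest edgeR adjusted p = 0.932 in each). Among genes of Wnt secretion and surface control, 9 of 19 tested were higher in LOS and 10 lower (median -0.04 on the log2 scale). At an unadjusted p under 0.05 there was 1. Over all genes the shares were 49.8% higher and 4.44% under that p. APCDD1, a membrane inhibitor of Wnt signalling in hair follicles, had a mean of 1.42 ± 0.72 CPM in LOS, against 0.76 ± 0.38 CPM in controls (0.92 ± 0.40, unadjusted p = 0.0430). IGFBP4 averaged 254 and 209 CPM (0.29 ± 0.15), DKKL1 13.8 and 9.23 CPM (0.59 ± 0.32), and the R-spondin gene RSPO1, whose product amplifies Wnt signals, 5.21 and 3.34 CPM (0.89 ± 0.62). In the intracellular beta-catenin machinery 25 of 40 were higher and 15 lower (median 0.04), with 0 at an unadjusted p under 0.05. The same shares of all genes, 49.8% and 4.44%, stand beside these counts. Of the co-repressor genes, TLE1 (-0.40 ± 0.20) and TLE4 (-0.30 ± 0.18) were lower by sign, and TLE3 (0.24 ± 0.15) and TLE2 (0.22 ± 0.27), added after their values were seen, were higher. CSNK1G1 (0.19 ± 0.11) and SIAH1 (0.18 ± 0.11) were also higher by sign. The groups did not overlap in 1 of the 40 genes, beside 0.23% of all genes. That gene, CHD8, encodes a chromatin remodeller that binds beta-catenin and was singled out after its values were seen. It lay at 119 to 128 CPM in LOS and 129 to 133 CPM in controls (-0.08 ± 0.06, unadjusted p = 0.213).

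In the list of polarity and calcium branches 18 of 27 were higher and 9 lower (median 0.11), and 2 had an unadjusted p under 0.05, beside 49.8% and 4.44% of all genes. NFATC2, which encodes a calcium-regulated transcription factor, had a mean of 170 ± 61.4 CPM in LOS cultures, against 95.7 ± 12.8 CPM in control cultures (0.84 ± 0.24). DAAM1, which links dishevelled to the actin cytoskeleton, averaged 28.8 and 23.5 CPM (0.32 ± 0.14). ROR2, a receptor for WNT5A, stood at 206 ± 48.1 CPM in LOS, against 165 ± 20.5 CPM in controls (0.33 ± 0.16), and MAPK8 at 28.9 and 25.3 CPM (0.19 ± 0.11). Among genes known as Wnt targets in some tissue 18 of 26 were higher and 8 lower (median 0.10), and 5 had an unadjusted p under 0.05, beside the same 49.8% and 4.44% of all genes. This list shares APCDD1, LGR5, RNF43, ZNRF3 and NOTUM with that of secretion and surface control, and APCDD1 is counted at that p in both. SNAI2, which encodes a mesenchymal transcription factor, stood at 132 ± 50.1 CPM in LOS, against 72.5 ± 17.6 CPM in controls (0.86 ± 0.26). NKD2, a feedback inhibitor that acts on dishevelled, averaged 8.75 ± 3.03 CPM and 5.40 ± 1.81 CPM (0.69 ± 0.25), and the homeobox gene MSX2 25.0 ± 10.6 CPM and 14.5 ± 4.24 CPM (0.80 ± 0.34). FGF9 stood at 0.49 ± 0.31 CPM in LOS, against 0.87 ± 0.34 CPM in controls (-1.07 ± 0.40). Apart from CHD8, the groups overlapped in all the genes tested from these 4 lists.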

How the data were processed

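Per the labels' protocols, total RNA of 11 fibroblast cultures was sequenced as 150 bp paired reads. Tools named in the submitters' processing notes include HISAT2 2.1.0, StringTie 2.1.4, Salmon 0.11.1, GATK, edgeR 3.36.0 and build ARS-UCD1.2. How reads were counted, whether strand was used and how shared reads were split are not given in the sources. The authors deposited expected counts per gene in one table, not normalised (71.2% of values whole, no tolerance), and whole allelic read counts per gene in another, per the file headers. A further table, which splits the first table's counts by the allelic share, was not used.

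Expected counts were rounded and fitted over all genes with edgeR 4.0.16 under R 4.3.3 (TMM scaling, filterByExpr, quasi-likelihood test, sex and group as terms, with a group by sex interaction in a second fit), and called where the adjusted p (Benjamini-Hochberg) was under 0.05. Each log2 fold change is LOS minus control, given with the standard error that goes with the printed p. CPM are not corrected for transcript length, so levels are compared within a gene. For allelic counts the model had a term for each library and for the allele, over genes with a mean of 20 allelic reads and 10 in at least 3 libraries of each group, X-linked and mitochondrial genes left out. The tests of LOS against control and of the maternal share were run on simulated data with the same assumed spread in every gene, unlike these data. The sex, interaction and maternal against paternal tests were not simulated. The p-values measure the spread between fetuses, each with 1 cell line and 1 library. Spread from the fetus, from its culture and from its library cannot be told apart. Alternatives used DESeq2 1.42.0 and limma 3.58.1.

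The 5 control values and the lowest, median and highest of the 6 LOS values are given for the 12 members with the smallest p, members whose groups do not overlap or that are called in a test, the 3 with the smallest interaction p, and the member of each class with the most CPM. Of each further list, up to 4 genes with the smallest p are named. The members and lists were chosen with earlier results of these data known.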

Additional observations from a re-analysis of the deposited data

Results flagged for a closer look

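In 6 of 62 groups of libraries looked at, 1 library stood apart from the rest of its group by Dixon's test at 95%. Chance gives about 1 in 20 for independent groups of normally distributed values. These were CPM without a log, and the same libraries recur in every gene, so the count cannot be set against that rate. LOS 1 stood apart in 3 of the 6, with 302 CPM of SFRP4, 55.3 CPM of FZD4 and 12.7 CPM of FZD7. LOS 6 stood apart with 5.02 CPM of TCF7. Among controls, control 5 stood apart with 24.1 CPM of SFRP2 and control 3 with 36.5 CPM of WNT5B.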

How the results depend on the processing

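No member was called for LOS against control under any alternative or with any library left out, and their median log2 fold change stayed between 0.04 and 0.13. DESeq2 called 5 genes for LOS against control, 6 for the interaction with sex and 22 for male against female, where the edgeR fit called 0, 0 and 8. Without the loci assembled by the authors 3 genes were called for male against female, and with 1 library left out 3 to 7. With 1 library left out, 0 to 1 genes were called for the maternal share of LOS against control. For the maternal against the paternal allele 1 to 2 members were called with 1 library left out (SFRP1 without control 1), and 2 at a mean of 10 allelic reads (FRZB).

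Some members changed sign, among them FRZB and DKK2, whose log2 fold changes were 0.51 and -0.37. AXIN1 was 0.000623 with no filter on low counts and 0.0019 with no sex term. FZD7 was 0.000596 with DESeq2, 0.0013 with no filter and 0.10 with no sex term, where SFRP2 was -0.51. In limma voom FRZB was -0.21, FZD8 0.015 and WNT11 -0.25, and WNT11 was -0.033 when scaled by library size only. The cause was not tested. With 1 library left out the ranges were -0.0504 to 0.0519 for AXIN1, -0.71 to 0.18 for DKK2, -0.21 to 0.89 for FRZB, -0.0235 to 0.28 for FZD3, -0.16 to 0.0700 for FZD7, -0.19 to 0.12 for FZD8, -0.62 to 0.23 for SFRP1, -0.39 to 2.78 for SFRP2, -0.19 to 0.37 for TCF7 and -0.0804 to 0.34 for WNT11. SFRP4 ranged over -3.01 to -0.25 and was -0.046 with no sex term, FZD6 over -1.37 to -0.49 and was -0.13 with the replicate block, WNT2 over -1.11 to -0.32, WNT9A over 0.11 to 0.65 and LRP5 over 0.13 to 0.41. LEF1 kept its direction at 0.88 to 1.31, its adjusted p being 0.561 with DESeq2.

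Replicate numbers did not pair the libraries throughout: the correlation of deviations was 0.26, 0.16, -0.17, -0.16 and -0.04 for numbers 1 to 5. The control most correlated with LOS 1 was control 1 and with LOS 2 control 2, whereas for LOS 3, LOS 4 and LOS 5 it had another number. Sex was not taken out of these deviations. With the number as a replicate block 0 genes were called, LEF1 was 0.74, and the signs differed for AXIN1 (0.021), FZD3 (-0.22), FZD7 (0.065), FZD8 (0.10), SFRP1 (0.22), TCF7L2 (-0.047) and WNT5A (0.014).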
